A study of Mus musculus with 6 samples.

Results

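The genes examined here are 10 transcripts that the RAS-ERK pathway turns on and that, for the most part, turn it down again: the Sprouty genes *Spry1*, *Spry2* and *Spry4*, the Sprouty-related genes *Spred1* and *Spred2*, the phosphatases *Dusp4* and *Dusp6*, and the PEA3 transcription factors *Etv1*, *Etv4* and *Etv5*. They were chosen by symbol and matched to the Ensembl row IDs of the count table. All 10 were among the 32493 genes counted, and all 10 passed the filter on low counts that left 16710 genes for testing. They were measured by RNA-seq in NSCs (neural stem cells) grown from E14.5 mouse brain. The ctrl embryos carried floxed miR-151 alleles without Cre (their genotype label is wt), and the cko embryos carried the same floxed alleles with Emx1-IRES-Cre, which is active in the dorsal telencephalon, so that cells outside that lineage would keep the alleles. Both groups were on a C57BL/6J background, and per the study's methods both cultures were expanded with EGF and bFGF.

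Of the 6 count columns, that of ctrl replicate 2 is in all 32493 genes the average of the other 2 ctrl columns, taken to the next whole count. It was therefore counted in no n and the comparison used 2 ctrl and 3 cko libraries. Their totals ran from 17883796 to 23335736 counts, and 3 counts, the limit that a count of 0 allows, corresponded to between 0.129 and 0.168 CPM (counts scaled to library size). Mature miR-151 was not measured in these libraries, and its host gene *Ptk2* differed by a log2 fold change of -0.01 (edgeR adjusted p = 0.942). The paper reports, by RT-qPCR in NSCs, less of the mature microRNA it studied in cko than in ctrl. It also reports that mRNA and protein of the host gene were unaltered. Of the stem cell markers, *Sox2* lay between 556 and 626 CPM in all 5 libraries, whereas *Emx1* had between 1 and 10 counts. Nothing ties these libraries to separate litters or animals, so the p-values measure the spread between these libraries, which may be technical.

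EGF and FGF receptors signal through the RAS GTPases to the kinases RAF, MEK and ERK. ERK activity induces its own brakes: Sprouty and Spred proteins act upstream, at the level of receptors, RAS and RAF, while the phosphatases encoded by *Dusp4* and *Dusp6* remove the activating phosphates from ERK itself. The PEA3 factors are ETS-family activators that follow FGF and ERK signaling, and the repressor Capicua, which ERK inactivates, holds several of these genes down when the pathway is quiet. Levels of this group are therefore widely used as a readout of ERK output.

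In cko NSCs, *Dusp6*, *Dusp4* and *Spry2* fell relative to ctrl, by log2 fold changes of -1.15, -0.61 and -0.78, with edgeR's quasi-likelihood test. *Spry1*, *Spry4* and *Etv4* had negative log2 fold changes of like size (-0.87, -0.93 and -0.95) that did not pass the adjusted threshold, with adjusted p between 0.052 and 0.112. *Spred1*, *Spred2*, *Etv1* and *Etv5* had log2 fold changes between -0.21 and 0.03, none past the threshold. Thus 3 of the 10 genes were lower and 0 were higher at an adjusted p under 0.05, where 8.73% of all tested genes were lower and 8.11% higher. None of the 10 was higher at an unadjusted p under 0.05 or with DESeq2 either. The median log2 fold change of the 10 genes was -0.70, and that of all 16710 tested genes was -0.0026. The count of lower genes depended on each cko library: it was 0 when cko replicate 1, 2 or 3 was left out. Over all genes, the number called lower fell too, to 907 of 16481, 431 of 16284 and 458 of 16306 tested genes. The median log2 fold change of the 10 genes was -0.93 against ctrl replicate 3 alone and -0.22 against ctrl replicate 1 alone.

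**Figure D1:**
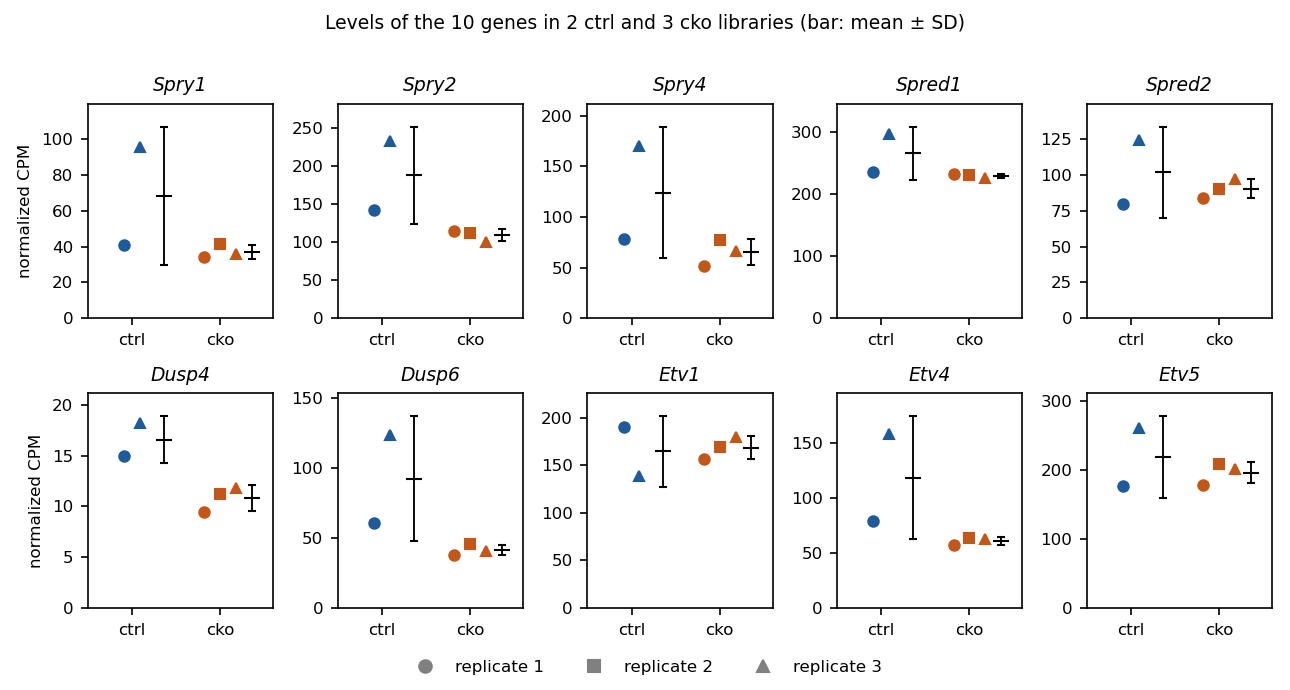
Normalized CPM (linear axes from 0) of each gene in the 2 ctrl libraries (blue) and the 3 cko libraries (orange), with the marker shape giving the replicate and the black bar the group mean ± SD. The cko points lie close together in each panel, while ctrl replicate 3 lies above ctrl replicate 1 in 9 of 10 panels, *Etv1* being the exception.

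The promoter windows of the genes are shown first, because Capicua and ETS factors are known to bind short, defined sequences near some of them. RefSeq windows (GRCm38.p6) of 300 bases, from 250 before the annotated start to 50 after it, were searched for 7 of the 10 genes, 9 windows in all. *Dusp4*, *Etv4* and *Spry4* were not searched. Those of *Dusp6* and *Spry2*, which passed the test, and of *Etv1* and *Etv5*, which did not, are given so that the letters around the start can be compared. *Etv1* and *Etv5* had 2 windows each, and only the one with matches is given. The other window of each held none of the sequences searched. Capitals mark the hexamer TGAATG, which both Capicua octamers searched (TGAATGAA and TGAATGGA) share as their first 6 letters, and the ETS cores CCGGAA and AGGAAG, or the reverse complement of any of them.
Dusp6, chr10:99262981-99263280, plus strand: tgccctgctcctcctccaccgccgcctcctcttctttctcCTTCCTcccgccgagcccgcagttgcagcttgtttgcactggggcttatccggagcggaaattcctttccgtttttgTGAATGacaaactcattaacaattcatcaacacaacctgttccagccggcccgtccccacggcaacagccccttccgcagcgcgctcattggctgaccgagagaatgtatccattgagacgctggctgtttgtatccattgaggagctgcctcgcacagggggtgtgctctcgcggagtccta
Spry2, chr14:105896770-105897069, minus strand: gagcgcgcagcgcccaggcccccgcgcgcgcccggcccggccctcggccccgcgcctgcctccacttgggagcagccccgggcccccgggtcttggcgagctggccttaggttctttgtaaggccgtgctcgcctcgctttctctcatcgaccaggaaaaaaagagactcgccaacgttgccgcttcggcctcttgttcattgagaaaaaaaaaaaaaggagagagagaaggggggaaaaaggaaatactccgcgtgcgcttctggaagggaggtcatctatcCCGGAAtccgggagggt
Etv1, chr12:38779832-38780131, plus strand: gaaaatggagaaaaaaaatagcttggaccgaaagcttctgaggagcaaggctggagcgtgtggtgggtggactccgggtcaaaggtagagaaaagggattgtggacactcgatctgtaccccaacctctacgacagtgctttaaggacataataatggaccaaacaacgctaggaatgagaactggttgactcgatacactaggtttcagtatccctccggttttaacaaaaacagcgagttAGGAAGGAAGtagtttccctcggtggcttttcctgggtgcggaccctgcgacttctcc
Etv5, chr16:22438319-22438618, minus strand: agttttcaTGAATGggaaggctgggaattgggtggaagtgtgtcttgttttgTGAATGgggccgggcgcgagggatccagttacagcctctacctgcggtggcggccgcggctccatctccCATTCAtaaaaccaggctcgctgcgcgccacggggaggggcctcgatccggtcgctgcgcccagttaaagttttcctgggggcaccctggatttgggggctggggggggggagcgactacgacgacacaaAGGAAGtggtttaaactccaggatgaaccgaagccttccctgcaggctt

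Neither Capicua octamer searched was found on either strand in any of the 9 windows. Of all 32851 windows, 1.3% held TGAATGAA and 1.21% held TGAATGGA. Octamers that begin with TCAATG were not searched. Reverse complements of such octamers can be read in the printed windows of *Dusp6* (tccattga) and *Spry2* (ttcattga). How many of all windows hold them was not counted. The shared hexamer TGAATG, added after the windows had been seen, was in 2 of the 9: once in *Dusp6*, at position -133 counted from the start as 1, and at 3 places in *Etv5*, at -242, -198 and, reversed, -129. It was in 12.7% of all windows. CCGGAA was in the *Spry2* window alone, at position 34 (14.9% of all windows), and AGGAAG in 4 windows, those of *Spred2*, *Dusp6*, *Etv1* and *Etv5* (35.4% of all). The *Etv1* window held 2 overlapping copies of AGGAAG, at -8 and -4. The AP-1 site TGANTCA and the CRE TGACGTCA were in none of the 9, against 7.81% and 1.79% of all windows. These are matches of letters in short windows, and a missing match says nothing about a factor's binding elsewhere. The *Etv5* window with 3 hexamers and the *Dusp6* window with 1 belonged to genes with log2 fold changes of -0.16 and -1.15. The other *Etv5* window held no hexamer. The windows of *Spred1*, *Spred2*, *Spry1*, *Spry2* and *Dusp6* were between 57.0% and 72.3% G or C, and the 2 windows each of *Etv1* and *Etv5* had 48.7% and 44.0%, and 60.0% and 74.0%, where the median of all windows was 52.7%.

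Of the Sprouty genes, whose membrane-associated products restrain receptor signaling to RAS and RAF, *Spry2* (ENSMUSG00000022114, chr14:105891947-105896819 in GENCODE M21, GRCm38) had 143 and 234 CPM in ctrl replicates 1 and 3 and 115, 113 and 101 CPM in cko replicates 1, 2 and 3. All 3 cko libraries lay below both ctrl libraries. It fell by 0.78 on the log2 scale (SE 0.19, 95% interval -1.24 to -0.32, edgeR adjusted p = 0.0388). Against ctrl replicate 1 alone its log2 fold change was -0.38 and against ctrl replicate 3 alone it was -1.10, and its adjusted p was 0.0935, 0.13 and 0.147 without cko replicate 1, 2 and 3.

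*Spry4* (chr18:38586247-38601415) had 78.1 and 170.0 CPM in the ctrl libraries and 51.8, 77.3 and 66.0 CPM in the cko libraries. The cko libraries lay below both ctrl libraries, but cko replicate 2 lay only 1.01-fold below ctrl replicate 1. Its log2 fold change was -0.93 (SE 0.32, 95% interval -1.69 to -0.17, adjusted p = 0.0961 with edgeR). *Spry1* (chr3:37639947-37644598) had 41.0 and 95.6 CPM in ctrl and 34.0, 41.4 and 35.9 CPM in cko, so that cko replicate 2 reached the level of ctrl replicate 1 and the groups overlapped. Its log2 fold change was -0.87 (SE 0.32, 95% interval -1.64 to -0.11, adjusted p = 0.112 with edgeR). The ctrl libraries differed in all 3 Sprouty genes, and ctrl replicate 3 was 2.33-fold (*Spry1*), 1.63-fold (*Spry2*) and 2.18-fold (*Spry4*) above ctrl replicate 1. Their summed level was 262 and 499 CPM in ctrl replicates 1 and 3 and between 201 and 231 CPM in the cko libraries.

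The Spred genes encode Sprouty-related, EVH1 domain proteins that bring neurofibromin to the membrane to switch RAS off. *Spred1* (chr2:117121374-117182279) had 236 and 296 CPM in ctrl and 232, 230.2 and 226 CPM in cko. The cko libraries were within 1.03-fold of each other and lay below both ctrl libraries, by as little as 1.01-fold. Its log2 fold change was -0.21 (SE 0.10, 95% interval -0.45 to 0.02, adjusted p = 0.19 with edgeR). *Spred2* (chr11:19924375-20024026) had 79.5 and 124 CPM in ctrl and 83.8, 90.5 and 97.3 CPM in cko. All its cko libraries lay between the ctrl libraries, and its log2 fold change of -0.17 (SE 0.18, 95% interval -0.61 to 0.27, adjusted p = 0.569) turned to 0.19 when ctrl replicate 3 was left out. That interval covers changes in either direction.

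Both dual-specificity phosphatase genes fell. *Dusp6* encodes MKP-3, a cytoplasmic phosphatase selective for ERK, and *Dusp4* encodes MKP-2, its nuclear relative. *Dusp6* (chr10:99263231-99267489) had 60.7 and 124 CPM in ctrl and 38.0, 45.5 and 40.8 CPM in cko, every cko library lying at least 1.33-fold below the lower ctrl library. Its log2 fold change of -1.15 (SE 0.27, 95% interval -1.80 to -0.50, edgeR adjusted p = 0.0338) was the most negative of the 10 genes. It was -0.54 against ctrl replicate 1 alone and -1.58 against ctrl replicate 3 alone, and its adjusted p lay between 0.108 and 0.15 when any 1 cko library was left out.

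*Dusp4* (chr8:34807297-34819894) was the scarcest of the 10, with 14.9 and 18.2 CPM in ctrl and 9.40, 11.2 and 11.9 CPM in cko. Its ctrl libraries were within 1.22-fold of each other, and all cko libraries lay below both, ctrl replicate 1 being 1.26-fold above the highest of them. It fell by 0.61 on the log2 scale (SE 0.16, 95% interval -0.98 to -0.24, edgeR adjusted p = 0.0373). Its adjusted p was 0.0874 without ctrl replicate 3 and between 0.0963 and 0.125 without any 1 cko library. The ratio of *Dusp6* to *Dusp4* counts was 4.06 in ctrl replicate 1, 4.05, 4.07 and 3.44 in the cko libraries, and 6.80 in ctrl replicate 3, which alone stood apart.

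The PEA3 genes differed among themselves. *Etv4* (chr11:101769742-101785371) had 78.9 and 158 CPM in ctrl and 57.0, 64.0 and 62.9 CPM in cko, every cko library lying below both ctrl libraries. Its log2 fold change was -0.95 (SE 0.26, 95% interval -1.57 to -0.33, edgeR adjusted p = 0.0524), just outside the threshold. DESeq2 gave an adjusted p of 9.0e-04, whereas edgeR gave 0.146, 0.169 and 0.183 without cko replicate 1, 2 and 3. For *Spry1* and *Spry4*, the adjusted p with DESeq2 was 0.164 and 0.141. *Etv5* (chr16:22381309-22439719) had 177 and 260.1 CPM in ctrl and 178, 208 and 201 CPM in cko. All its cko values lay between those of the ctrl libraries, and its log2 fold change was -0.16 (SE 0.16, 95% interval -0.54 to 0.23, adjusted p = 0.548), and 0.15 without ctrl replicate 3.

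*Etv1* (chr12:38779380-38870484) had 190.4 and 138 CPM in ctrl and 156, 169 and 180.0 CPM in cko. It was the only one of the 10 genes that was lower in ctrl replicate 3 than in ctrl replicate 1, and its cko values lay between those 2. Its log2 fold change was 0.03 (SE 0.14, 95% interval -0.29 to 0.35, adjusted p = 0.891 with edgeR).

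Per kilobase of exon, *Etv5* was the most abundant PEA3 gene in every library, with 52.0% and 50.8% of the family's summed level in ctrl replicates 1 and 3 and between 59.1% and 60.3% in cko. *Etv4* made up 30.7% and 40.9% in ctrl and 24.9%, 24.6% and 24.5% in the cko libraries, all 3 below both ctrl libraries. *Etv1* made up 17.3% and 8.33% in ctrl and between 15.1% and 16.4% in cko. The ratio of *Etv4* to *Etv1* counts was 0.414 in ctrl replicate 1, 1.14 in ctrl replicate 3 and 0.365, 0.378 and 0.349 in cko. The summed level of the 3 genes was 446 and 557 CPM in ctrl and between 392 and 444 CPM in cko. The cko sums lay below both ctrl sums, but those of cko replicates 2 and 3 lay close to that of ctrl replicate 1.

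**Figure D2:**
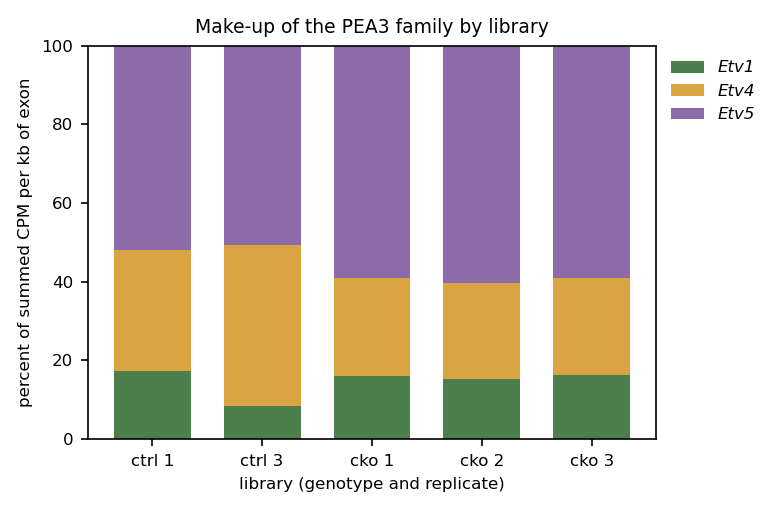
Share of each PEA3 gene in the family's summed CPM per kilobase of exon, in percent, in each of the 5 libraries. The *Etv4* share is 30.7% and 40.9% in the ctrl libraries and between 24.5% and 24.9% in the cko libraries.

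On the same scale of CPM per kilobase, *Spry2* was the most abundant of the 10 genes, with means of 90.2 in ctrl and 52.5 in cko, followed by *Etv5* (53.2 and 47.7), *Spred1* (39.2 and 33.8) and, in ctrl, *Etv4* (38.2, against 19.7 in cko). *Dusp4* was the least abundant (6.05 and 3.95), below *Etv1* (12.4 and 12.7). *Spry1*, *Spry4*, *Dusp6* and *Spred2* had ctrl means between 22.1 and 29.4, and the libraries of ctrl replicates 1 and 3 differed by more than these means did from each other. In cko, *Spry1*, *Spry4*, *Dusp6* and *Etv1* all had means between 12.7 and 13.7.

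By another threshold, the one the study used (a log2 fold change beyond 0.9 with an unadjusted p under 0.01), 2 of the 10 genes were lower, *Dusp6* and *Etv4*, where 4.06% of tested genes were. Every cko library lay below both ctrl libraries in 6 of the 10 (*Spry2*, *Spry4*, *Spred1*, *Dusp4*, *Dusp6* and *Etv4*), where this held for 24.3% of tested genes. In none of the 10 did every cko library lie above both ctrl libraries. In this bulk RNA, fewer cells of a type and less RNA per cell cannot be told apart.

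**Figure D3:**
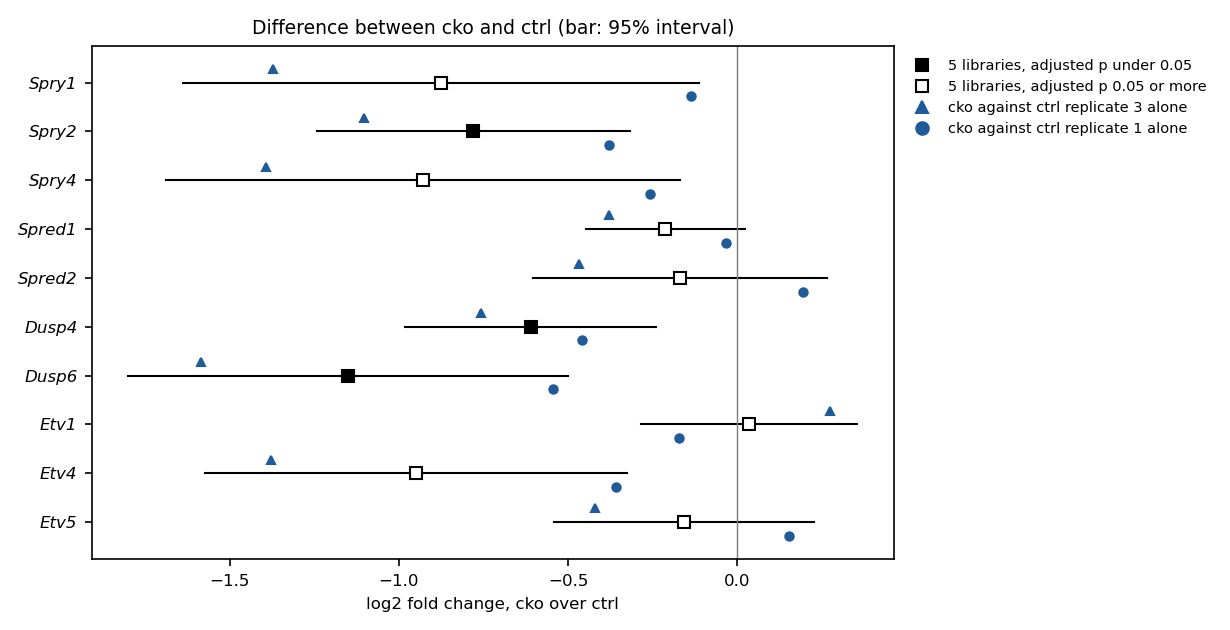
Log2 fold change of each gene, cko over ctrl, from edgeR with all 5 libraries (squares, filled where the adjusted p is under 0.05, with the 95% interval as a bar) and with 1 ctrl library left out (triangles, against ctrl replicate 3 alone, and circles, against ctrl replicate 1 alone). The circles of *Spred2* and *Etv5* lie above 0 and that of *Etv1* below 0, while the triangles of 9 genes lie between -1.58 and -0.38.

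The ctrl libraries differed widely in these genes. Ctrl replicate 3 was at least 1.5-fold above ctrl replicate 1 in 6 of the 10 (*Spry1*, *Spry2*, *Spry4*, *Spred2*, *Dusp6* and *Etv4*), where this held for 9.4% of all tested genes and for 3.95% of the 10180 with a mean of at least 10 CPM. It was the highest of the 5 libraries for 9 of the 10, where it was so for 26.4% of those 10180. The median log2 ratio of ctrl replicate 3 to ctrl replicate 1 was 0.68 over the 10 genes and -0.0028 over all tested genes. The cko libraries lay closer to each other, the highest being between 1.03-fold (*Spred1*) and 1.49-fold (*Spry4*) above the lowest. Against ctrl replicate 1, the mean of cko was lower by 1.46-fold for *Dusp6*, 1.38-fold for *Dusp4*, 1.31-fold for *Spry2* and 1.29-fold for *Etv4*. *Spry4*, *Etv1*, *Spry1* and *Spred1* were lower by 1.20-fold, 1.13-fold, 1.10-fold and 1.03-fold. For *Spred2* and *Etv5* the mean of cko was higher, ctrl replicate 1 being at 0.878 and 0.903 of it. Against ctrl replicate 3, *Dusp6*, *Dusp4*, *Spry2* and *Etv4* were lower by 2.98-fold, 1.68-fold, 2.13-fold and 2.58-fold.

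Other genes of the pathway gave the setting. Of 8 tested paralogs of the Sprouty, Spred and DUSP families outside the 10, 3 rose and 1 fell. Those that rose were *Dusp10* (log2 fold change 0.64, adjusted p = 0.00664), *Dusp16* (0.45, adjusted p = 0.0387) and *Dusp8* (0.44, adjusted p = 0.0276), phosphatases known to act mainly on the JNK and p38 kinases. The one that fell, *Dusp9*, had 1.49 and 2.19 CPM in ctrl and at most 0.414 CPM in cko. *Dusp5*, a nuclear ERK phosphatase, differed by a log2 fold change of -0.34 (adjusted p = 0.316), and *Spred3* of -0.01 (adjusted p = 0.972). A published transcript score of MAPK activity holds, beside some of the 10, 4 further genes. *Epha2*, a receptor of ephrins, fell by 1.69 (adjusted p = 0.0316), from 3.58 and 8.38 CPM in ctrl to between 1.47 and 2.57 CPM in cko, while *Phlda1* (0.11, adjusted p = 0.527), *Epha4* (0.16, adjusted p = 0.55) and the cyclin *Ccnd1* (-0.12, adjusted p = 0.84) did not pass. *Ccnd1* had 304 and 658 CPM in ctrl and 347, 507 and 476 CPM in cko, so that its ctrl libraries differed in the direction of the Sprouty genes and its cko libraries lay between them.

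Of 22 tested immediate early and other ERK output genes, 8 fell and 0 rose (0 also rose at an unadjusted p under 0.05), with a median log2 fold change of -0.30. Transcription factors led them: *Fosl2* (-1.77, adjusted p = 0.000648), *Klf10* (-1.39, adjusted p = 0.000701) and *Egr2* (-1.53, adjusted p = 0.00379), with *Arc*, a synaptic immediate early gene (-2.33, adjusted p = 0.00429). *Egr1*, *Fos* and *Myc*, the best known of the early ERK targets, had log2 fold changes of -0.29, 0.09 and -0.29, none past the threshold.

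Among 16 other genes listed as feedback regulators, 2 rose, *Flrt3* (1.15, adjusted p = 0.000648) and *Il17rd* (0.84, adjusted p = 0.0152), and 1 fell, *Lrig1* (-0.60, adjusted p = 0.00762). *Flrt3* encodes a membrane protein that FGF induces and that is known to promote FGF receptor signaling, so it is no inhibitor, whereas *Il17rd* encodes SEF, which, like the Sprouty proteins, restrains FGF signaling. Upstream, 3 of 12 receptors fell, *Erbb2* (-1.57, adjusted p = 0.00281), *Fgfr1* (-0.48, adjusted p = 0.00925) and *Ntrk2* (-0.62, adjusted p = 0.0362), and *Egfr* rose (0.32, adjusted p = 0.0311). Of 15 genes of the EGF and FGF ligand families, 5 fell, among them *Hbegf* (-1.78, adjusted p = 0.00138), *Fgf11* (-1.59, adjusted p = 0.0132) and *Fgf2* (-1.48, adjusted p = 0.0142), and 2 rose, *Nrg1* (1.06, adjusted p = 0.00372) and *Fgf12* (0.49, adjusted p = 0.0356). *Fgf11* and *Fgf12* encode FGF homologous factors, which stay inside the cell and are not receptor ligands. Of 24 adaptor, RAS, RAF, MEK and ERK genes, 3 fell and 1 rose, and these called genes had log2 fold changes between -0.40 and 0.51. *Rps6ka1*, of the same list, had -0.80 and did not pass (edgeR adjusted p = 0.234). Over all tested genes, 8.73% fell and 8.11% rose.

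**Figure D4:**
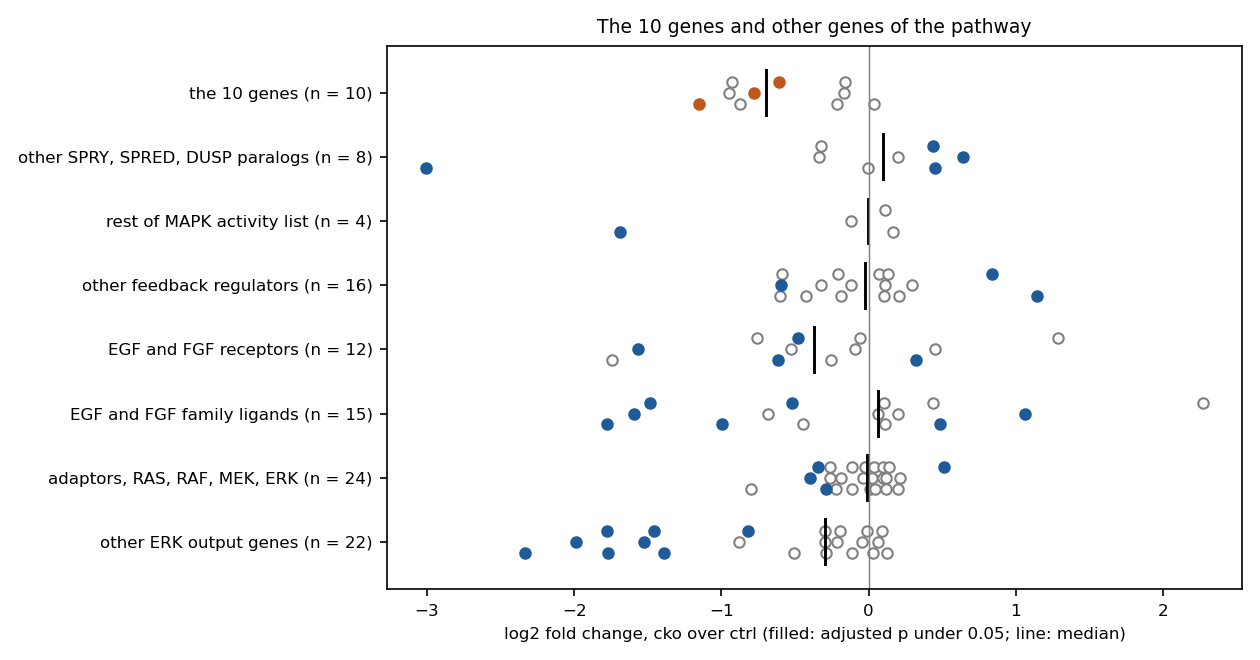
Log2 fold change, cko over ctrl, of the 10 genes and of the tested genes of 7 other lists of the pathway, one point per gene, filled where the edgeR adjusted p was under 0.05, with a line at the median of each list. The median lies at -0.70 for the 10 genes, -0.30 for the other ERK output genes and -0.01 for the adaptors and kinases.

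Markers of other cell states moved with genotype as well. Of 6 cycling markers, 5 rose in cko and 0 fell, their summed level being 760.2 and 868 CPM in ctrl and between 1565 and 2065 CPM in cko. Of 8 astrocyte markers 5 fell, with sums of 4279 and 3596 CPM in ctrl and between 1742 and 2535 CPM in cko. Of 12 oligodendrocyte lineage markers 7 fell and 2 rose (*Olig1* and *Olig2*), and of 10 stem cell markers 4 rose. Microglial markers summed to at most 0.48 CPM in any library, with *Cx3cr1* and *Tmem119* at 0 throughout, and endothelial markers to at most 0.694 CPM, with *Cdh5* at 0. *Xist*, which is transcribed in female cells, was at 2889 and 2557 CPM in ctrl and between 787 and 894 CPM in cko, and 4 Y-linked genes summed to 94.7 and 116 CPM in ctrl and between 230.5 and 256 CPM in cko. Every library thus held *Xist* and Y-linked RNA together. The part of these differences in the levels of the 10 genes was not tested.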

How the data were processed

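Reads were checked (FastQC, v0.11.5), filtered (NGSQC, v2.3.3) and aligned (HISAT2) by the authors, whose deposited table holds unscaled counts for each gene. The build is mm10 in the study's methods and GRCm39 in the labels, and the counting tool, annotation and strand setting are not given in the sources used here, so reads shared with overlapping genes cannot be told apart. Gene positions, symbols and exon lengths came from GENCODE M21 (GRCm38), which held 31829 of the 32493 IDs.

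Counts of 2 ctrl and 3 cko libraries were scaled by TMM, filtered with filterByExpr and tested with edgeR's robust quasi-likelihood test (edgeR 4.0.16, R 4.3.3), with Benjamini-Hochberg adjustment over 16710 genes and a threshold of 0.05. SE was the log2 fold change over the square root of F. DESeq2 1.42.0 was an alternative. Fits were checked on simulated data.

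All 10 genes were to be named, with up to 4 called genes of smallest p from each pathway list and all 4 of the MAPK activity list; *Dusp5*, *Dusp9*, *Spred3*, *Egr1*, *Fos*, *Myc*, *Ptk2*, *Fgf12* and the markers named were added after their values were seen. The 10 genes and all lists were chosen with earlier results of these data known. Alternatives were other scalings, filters, tools and thresholds, leaving out each library, a replicate block, and all 6 columns. Intervals of counts cover counting error only.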

Additional observations from a re-analysis of the deposited data

How the results depend on the processing

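The number of the 10 genes called lower, 3 in the comparison reported, was 5 with all 6 columns in edgeR, 5 with all 6 columns in DESeq2, 5 at an adjusted p under 0.1, 0 at an adjusted p under 0.01, and between 0 and 9 when 1 library was left out; a lone ctrl library was assumed to vary like the others. Among all tested genes, 1458 of 16710 were called lower in the comparison reported. This number was 2778 of 16322 with all 6 columns in edgeR. It was 2142 of 16710 at an adjusted p under 0.1 and 492 of 16710 at an adjusted p under 0.01. With all 6 columns in DESeq2 it was 2539 of 30524 genes with a p-value. The added column, ctrl replicate 2, is the average of the other 2 ctrl columns and so no further library. With DESeq2, 4 of the 10 were called lower (1581 of 30524 genes with a p-value, not all of which need have an adjusted p). With at least 10 counts in every library, the number was 4 (1501 of 14673). It was 4 without robust estimation (added after seeing the data, 1432 of 16710) and 2 without a filter (2081 of 30524). Under each of the other scalings it was 3, with between 1438 and 1483 of 16710 tested genes lower. The number called higher was 0 under each. Signs changed for *Spred2* (leave-one-out range -0.47 to 0.19), *Etv1* (-0.17 to 0.27) and *Etv5* (-0.42 to 0.15). Without a filter the adjusted p of *Dusp6* was 0.272. The causes were not tested.

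With the replicate number as a block, 2 genes were called lower, *Dusp4* (adjusted p = 0.0425) and *Spry4* (0.0197), and *Spry2* (0.195) and *Dusp6* (0.088) were not. The numbers are not known to pair the samples: deviations of same-numbered ctrl and cko libraries correlated at 0.179 and 0.0546 across genes. With 2 ctrl libraries that differ by up to 2.33-fold in these genes, log2 fold changes have standard errors of up to 0.32.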
